A study of Mus musculus with 207 samples.

Results

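The genes described here are those with which a macrophage exports cholesterol and senses its surplus: the exporters Abca1 and Abcg1, the liver X receptor genes Nr1h3 and Nr1h2, their partner Rxra, and the target genes Mylip and Lpcat3. They were taken by name, as every probe set that the array annotation gives to these 7 genes. That made 12 of 45037 probe sets, of which 11 had a signal of at least 80 in at least 69 of the 207 mice and entered the tests, as did 21817 probe sets in all. The exception was the third Rxra probe set, with a mean signal of 13.7 in females and 15.1 in males. RNA was measured in macrophages grown from the marrow of F2 mice, 93 females and the rest males, which were 16 weeks old and came from an intercross of the AKR and DBA/2 strains, with 1 Affymetrix array per mouse. Every mouse of both sexes was apoE-deficient, so that all of these macrophages lacked apoE, itself a carrier of exported cholesterol and a liver X receptor target. The adherent marrow cells were cultured for 2 weeks in medium with 10% serum and with 20% of medium conditioned by L-cells, a source of the growth factor M-CSF. No cholesterol loading or receptor agonist is named for these cultures, and the mice differed in their mix of parental alleles. Each mouse has a code that ends in a number, which starts at 33 in females and at 9 in males and whose meaning the labels leave out.

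Liver X receptors are nuclear receptors that are activated by oxysterols, oxidized forms of cholesterol, and bind DNA together with retinoid X receptors. Their targets in macrophages move cholesterol out of the cell, limit its uptake and remodel membrane phospholipids. Sterol synthesis runs under another regulator, the SREBP-2 transcription factor, which is active when membrane cholesterol is low, and is represented here by Hmgcs1, which makes HMG-CoA for the mevalonate pathway, and Sqle, the squalene epoxidase. In macrophages loaded with cholesterol the receptor targets are known to rise while sterol synthesis falls.

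The binding site of the receptor pair is a direct repeat of a short half-site with a spacer of 4 bases. The RefSeq table of promoter windows (250 bases before to 50 after a start site, assembly GRCm38.p6) holds 6 of the 7 genes, all but Abcg1, and Hmgcs1 but not Sqle. A search on both strands for the repeat, spelled as GGTNA followed after 5 bases of any kind by GGTNA again (N is any base), found it in 0.718% of 32851 promoter windows, and among these genes in Abca1 alone. The window of Abca1 also holds the E-box CACGTG, which 7.15% of the windows have, and that of Hmgcs1 holds the core of a sterol regulatory element, CACCCCAC, which 2.87% have on either strand. These matches of letters are shown because Abca1 and Hmgcs1 stand for the export and the synthesis arm in the correlations further on. Counted from the start site of that table, the matches begin 67 (repeat) and 147 (E-box) bases upstream in Abca1 and 136 bases upstream in Hmgcs1. The annotated Abca1 gene, chr4:53030789-53159988, takes in the repeat but not the E-box, and the Hmgcs1 match lies outside its gene, chr13:119690351-119708260. The capitals mark the match, and each run is read 5′ to 3′ along the gene's strand.
Abca1, chr4:53159940-53159969, minus strand, direct repeat (on the opposite strand): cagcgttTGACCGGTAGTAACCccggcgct
Abca1, chr4:53160025-53160054, minus strand, E-box: gggccatgtctcCACGTGctttctgctgag
Hmgcs1, chr13:119690204-119690233, plus strand, sterol regulatory element core: cgtcaccgtctCACCCCACttcccaggtcc

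Every value is a MAS5 signal, a linear brightness of 1 probe set that was scaled by the authors to the whole chip. Signals of different probe sets are not compared as levels, since each probe set has its own response. Xist was 3030 to 8769.8 in females and 22.3 to 807.2 in males, and the Y-linked Eif2s3y 0.4 to 215.2 in females and 990.5 to 2729.7 in males, so that no array went against its label. All 8 macrophage markers passed the signal minimum, with a summed signal of 118940 to 197410 in females and 135670 to 205810 in males. Of the neutrophil markers 2 of 6 passed (Elane, Ltf, Mpo and Ngp did not; summed signal 384.8 to 19407 in females and 420.6 to 32587 in males), and of the stromal markers 6 of 6 (371.5 to 71640 in females and 406.5 to 32172 in males), and 2 of the stromal markers were lower in females by the test of the sexes described next. Their part in the members' differences was not tested. Between 0 and 3 of each of the lists for osteoclasts, dendritic cells, B cells, endothelial cells, T and NK cells, mast cells, erythroid cells and adipocytes passed. By the same test 1 of the 2 dendritic markers that passed was lower in females, as was 1 of the 8 macrophage markers. The summed dendritic signal had a median of 469.8 in females and 1278.4 in males, and its part was not tested either. The 24 males numbered 55 to 78 stood apart in brightness, with array median signals of 76 to 122.3, against 54.7 to 78.9 in the other 90 males. Many results in males are therefore given with and without them, and where this is not said a result in males includes them. The 3′ to 5′ signal ratio of the Gapdh control, which reads RNA integrity and labelling, was 0.917 ± 0.065 in females and 0.791 ± 0.030 in males (SD). Whether the sexes were hybridized in the same runs is not given in the sources used here, so that sex and any such run cannot be told apart.

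The first comparison was that of the sexes, probe set by probe set, with a 2-sided Mann-Whitney test of the signals and a Bonferroni correction over 21817 probe sets. By this test 31.4% of all probe sets differed, 15.3% with the higher signal in females and 16.0% with the higher signal in males. Among the 11 probe sets of the members 1 was higher in females and 3 were higher in males, a share close to that over all probe sets. All 4 belonged to Abca1 and Rxra, and each of these genes also had a probe set that went another way.

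**Figure D1:**
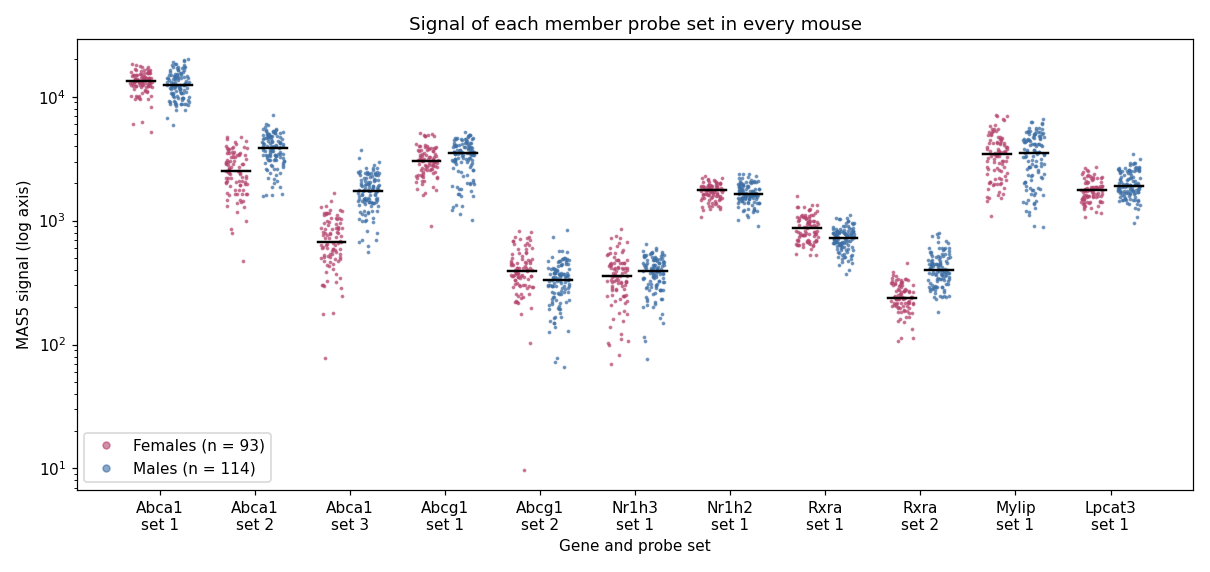
MAS5 signal (log axis) of the 11 tested probe sets of the members, with 1 point per mouse and a black line at the median, females left of males for each probe set (numbered within a gene by brightness). The second and the third Abca1 probe set and the second Rxra probe set sit lower in females, while the groups overlap widely for Abcg1, Nr1h3, Nr1h2, Mylip and Lpcat3.

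Abca1, on chromosome 4, exports cholesterol and phospholipid to lipid-poor apolipoprotein A-I. Its brightest probe set had a signal of 5195.2 at the lowest, 13274 at the median and 18335 at the highest in females, and of 5910.9, 12417 and 20019 in males. The groups overlapped almost wholly (mean 13291 ± 2534 in females and 12738 ± 3076 in males, ratio 1.04, adjusted p = 1 by the Mann-Whitney test). The second probe set was lower in females, at 476.6, 2509.6 and 4725.8, against 1573.1, 3853.5 and 7132 in males, a ratio of means of 0.678 (adjusted p = 6.0e-09). In the third probe set the sexes overlapped in part. It was at 77.5, 677.7 and 1657.9 in females, against 560.6, 1736.4 and 3703.6 in males, a ratio of 0.410 (adjusted p = 3.2e-24), with 31 females below the lowest male and 62 males above the highest female, and the other mice in a shared range. Of all probe sets tested, 1.38% differed by the same test and by at least 2 times in either direction.

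These calls of Abca1 differed in how they held. Without the males numbered 55 to 78 the ratios were 0.652 and 0.389. Females and males were also split by code number into 3 groups each, and each group of females was set against each group of males. By the test the third probe set was lower in females in 8 of 9 such comparisons (ratios 0.307 to 0.566) and the second in 4 of 9 (0.514 to 0.894), and 0 of the 11 probe sets had the same call in all 9, as 2.94% of all probe sets did. With the 3′ to 5′ ratios of Gapdh and beta-actin as covariates in limma, the third probe set kept its call (log2 difference -0.98 ± 0.14, SE, adjusted p = 3.1e-07), while that of the second was lost (-0.44 ± 0.12, adjusted p = 1). The ratios differ between the sexes themselves, and their part in the difference was not tested further.

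The 3 Abca1 probe sets nevertheless went up and down together over the mice of each sex. The second and the third had a Spearman rho of 0.96 in females and 0.96 in males, and the first had 0.82 with each of them in females and 0.76 and 0.68 in males. The log2 ratio of the third to the second within each array, chosen after the values were seen and given without a test, was -1.89 ± 0.21 (SD) in females and -1.14 ± 0.14 in males. Its range was -2.61 to -1.51 in females and -1.58 to -0.88 in males, so that 4 females lay above the lowest male and 1 male lay below the highest female. A female had the lower ratio in 99.96% of all pairs of a female and a male. Of 14324 pairs of tested probe sets of the same gene, 15 (0.105%) were as far apart between the sexes. Within each sex this ratio was lower where the Gapdh 3′ to 5′ ratio was higher (rho -0.43 in females and -0.29 in males, as a description).

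**Figure D2:**
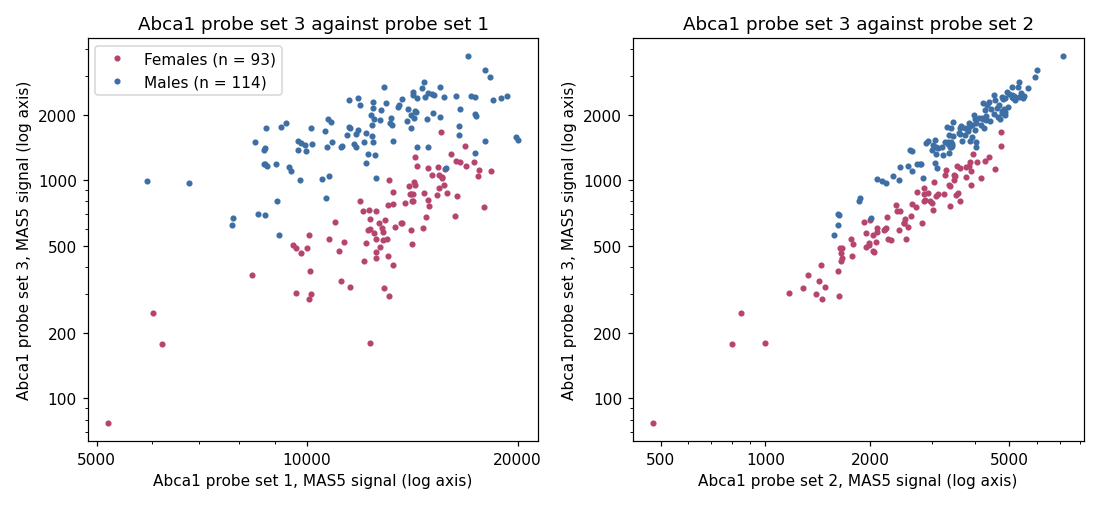
MAS5 signals (log axes) of the 3rd Abca1 probe set against the 1st (left) and against the 2nd (right), with 1 point per mouse, for females and males. In the right panel the sexes form 2 parallel bands, with the females below the males at the same signal of the 2nd probe set.

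Abcg1, on chromosome 17, exports cholesterol to high density lipoprotein. Its brighter probe set was at 908.5 (lowest), 3050.5 (median) and 5141.9 (highest) in females and at 1007, 3486.9 and 5176.5 in males, and the difference did not pass the test (ratio 0.933, adjusted p = 1). The dimmer probe set had its mean on the other side, 418 ± 157 in females and 334 ± 127 in males (ratio 1.25, adjusted p = 1), and was called higher in females when all arrays were scaled to the same median (ratio 1.35). Of 5122 genes with more than 1 tested probe set, 10.7% had calls in both directions, which Abcg1 did not.

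The receptor genes themselves did not pass the test of the sexes. Nr1h3, on chromosome 2, which encodes LXR-alpha, the receptor that macrophages induce, had a mean of 367 ± 159 in females and 383 ± 116.6 in males. Nr1h2, on chromosome 7, which encodes the more widely expressed LXR-beta, had 1725 ± 255 in females and 1670 ± 301 in males. The adjusted p was 1 for each. Rxra, also on chromosome 2, encodes the partner that both receptors need to bind DNA. Its brightest probe set was higher in females, at 526.5, 869.8 and 1588.7, against 369.7, 725.3 and 1120.1 in males (ratio 1.22, adjusted p = 0.0051), a call that was lost without the males numbered 55 to 78 (ratio 1.22, adjusted p = 0.053). By the test it was called higher in females in 2 of 9 comparisons of code groups (ratios 1.00 to 1.52). The second Rxra probe set was lower in females, at 106.4, 239.6 and 452.8, against 181.5, 399.6 and 794.6 in males (ratio 0.591, adjusted p = 2.3e-19). It was lower in females in 7 of 9 comparisons of code groups, and its ratio without the males numbered 55 to 78 was 0.669 (adjusted p = 1.3e-14). Rxra was thus 1 of the genes called in both directions.

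The target genes did not differ between the sexes by the test. Mylip, on chromosome 13, encodes the ubiquitin ligase that sends the LDL receptor to degradation, and had a mean of 3538 ± 1422 in females and 3478 ± 1443 in males. Lpcat3, on chromosome 6, which encodes an enzyme that places polyunsaturated fatty acids into phospholipids, had 1773 ± 357 in females and 2001 ± 481 in males (ratio 0.886, adjusted p = 1). The sterol synthesis genes did not pass either: Sqle had 838 ± 598 in females and 1345 ± 949 in males, and the brightest Hmgcs1 probe set 3458 ± 1445 in females and 4308 ± 2254 in males (adjusted p = 1 for each).

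The members differed in how far mice varied. The coefficient of variation (SD over mean) of a tested probe set had a median of 25.9% in females and 26.9% in males. Nr1h2 varied least, with 14.8% in females and 18% in males, and the highest mouse had 2.15 and 2.63 times the lowest. The brightest Abca1 probe set (19.1% in females, 24.1% in males) and Lpcat3 (20.2% in females, 24% in males) were also below those medians. Mylip varied most in males (40.2% in females, 41.5% in males), with 6.53 times between the lowest and the highest female and 7.49 times between the lowest and highest male. Nr1h3 was at 43.3% in females and 30.4% in males.

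The spread was next set against the number in the code. The slope of log2(signal + 1) per 10 numbers was fitted with limma in each sex and corrected by Bonferroni over 21817 probe sets. In females 29% of all probe sets passed, 15.8% up and 13.1% down, and in males 32.4%, 17.3% up and 15.1% down. Of the members' 11 probe sets 3 fell in females and 2 in males, and 0 rose. Without the males numbered 55 to 78, 36.9% of all probe sets passed in males. Lpcat3 and Nr1h3 kept their falls there (adjusted p = 4.2e-10 and 0.0012). The second Rxra probe set fell there as well (slope -0.049 ± 0.008, SE, adjusted p = 4.8e-04). Lpcat3 fell in both sexes, by 0.077 ± 0.008 (SE) in females and by 0.071 ± 0.007 in males (adjusted p = 4.2e-12 and 4.5e-12). Its mean over the 3 code groups, low to high, was 2129, 1708 and 1481 in females and 2509, 1810 and 1685 in males. Nr1h3 fell by 0.146 ± 0.023 in females and by 0.079 ± 0.013 in males (adjusted p = 2.1e-04 and 8.1e-04), though its call in males was lost with the 3′ to 5′ ratios as covariates (-0.016). Its median over the 3 code groups was 412.2, 425.8 and 235 in females and 398.2, 459.1 and 282.1 in males, so that the last group alone was low. The brighter Abcg1 probe set fell in females (by 0.075 ± 0.014, adjusted p = 0.0070), and its slope in males was -0.053 ± 0.014 (adjusted p = 1).

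The slopes of the brightest Abca1 probe set were 0.032 ± 0.012 in females and 0.027 ± 0.010 in males, and those of Nr1h2 0.033 ± 0.008 and 0.023 ± 0.007 (adjusted p = 1 for each). With Benjamini-Hochberg in place of Bonferroni all 4 passed as rises (adjusted p = 0.013, 0.012, 1.9e-04 and 0.0039), as did 33.8% of all probe sets in females and 34.4% in males. The difference of the slopes between the sexes passed for 0 of the 11 probe sets by limma with Bonferroni, against 0.642% of all probe sets. The sterol synthesis genes also fell. Hmgcs1 (brightest probe set) fell by 0.106 ± 0.018 in females and 0.143 ± 0.017 in males (adjusted p = 0.0016 and 7.2e-09), and Sqle fell by 0.246 ± 0.022 in males (adjusted p = 9.3e-16), with a slope of -0.157 ± 0.032 in females (adjusted p = 0.066). The genes of cell division, Cdk1 and Top2a among them, fell over the same numbers (5 of 5 in each sex), and the tested neutrophil markers rose (2 of 2 in each sex). Their part in these trends was not tested.

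A straight slope hides the course of these genes, which is given here as medians over successive runs of 6 numbers, without a test. In females Abca1 (brightest probe set) was at 6114 in the 4 mice of numbers 31 to 36, reached 15872 at 79 to 84 and was at 12758 in the last run. In males it was at 7304 in the 4 mice of 7 to 12, reached 18352 at 61 to 66, dropped to 8867 at 73 to 78 and 9825 at 79 to 84, and was back at 14005 at 85 to 90. Over 16 runs that both sexes have, the medians of females and males had a rho of -0.12 for Abca1. That rho was 0.57 for Abcg1, 0.54 for Mylip, 0.63 for Nr1h3, 0.55 for Lpcat3, 0.74 for Hmgcs1 and 0.85 for Sqle. It was -0.06 for Nr1h2, -0.04 and -0.19 for the first and second Rxra probe sets, and 0.28 for the dimmer Abcg1 probe set. The codes of males carry a prefix that those of females lack, and whether like numbers match across the sexes is not given.

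Mylip was at 5416 in females at 91 to 96 and at 5701 in the next run, and at 1664 in the last run but 1. In males it was at 5242 at 37 to 42, at 1225 at 79 to 84 and at 4923 at 91 to 96. Nr1h3 was at 443 in females at 91 to 96, had its lowest run median directly after that and was at 151 in the following run, and in males it was lowest at 91 to 96, at 132. Abcg1 was low at 79 to 84 in females (2086) and at 67 to 84 in males (1463, 1758 and 1615 in successive runs), as was Mylip (1987 in those females, and 1795, 1425 and 1225 in those males).

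**Figure D3:**
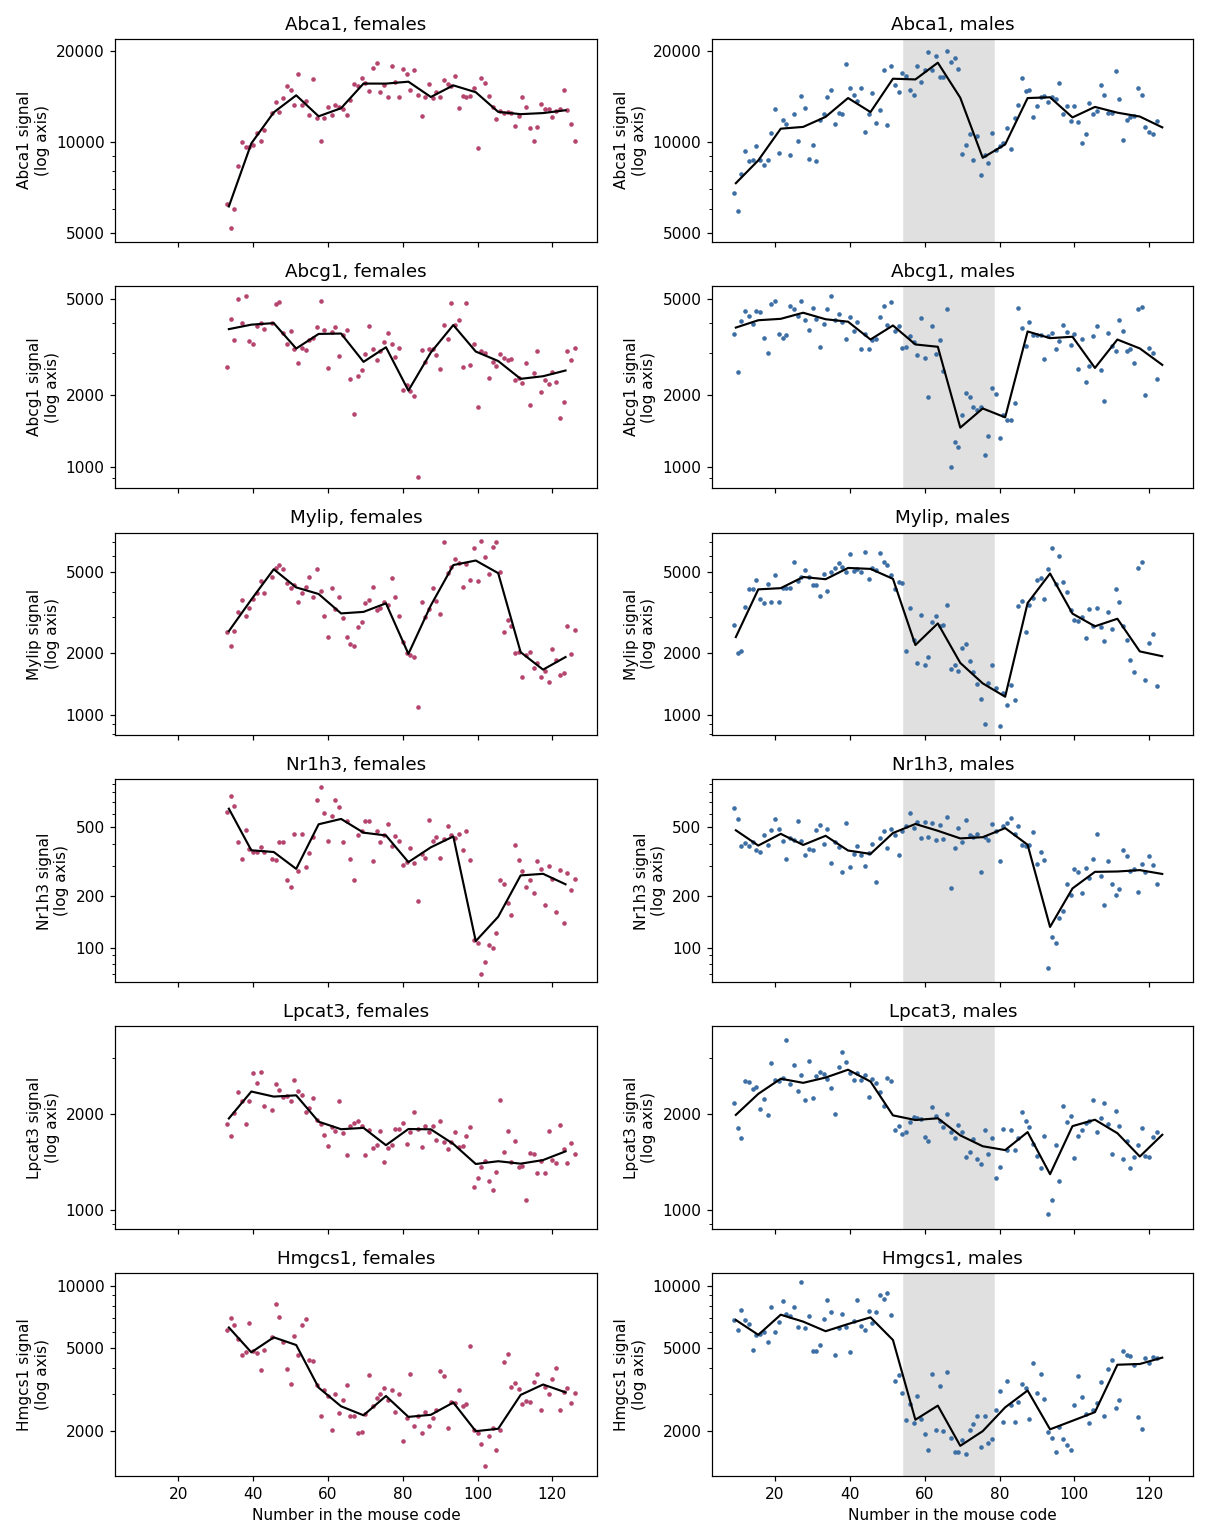
MAS5 signal (log axis) of the brightest probe set of Abca1, Abcg1, Mylip, Nr1h3, Lpcat3 and Hmgcs1 against the number in the mouse code, with females on the left and males on the right, 1 point per mouse and the median of each run of 6 numbers as a black line. The grey band marks the males numbered 55 to 78, within which the medians of Abca1 lie between 18352 and 8867, and Nr1h3 dips after number 90 in both sexes.

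The males numbered 55 to 78 were also set against the other 90 males, with limma on the same scale, by which 24% of all probe sets differed, 15.6% higher and 8.47% lower in those 24. Both Abcg1 probe sets were lower (log2 difference -0.62 ± 0.11 and -0.68 ± 0.13, adjusted p = 8.0e-04 and 0.013), Mylip was lower (-0.82 ± 0.14, adjusted p = 0.0010), and the second Rxra probe set was higher (0.71 ± 0.07, adjusted p = 8.7e-13). Mylip was at 899.8, 1873.8 and 3464.5 (lowest, median and highest) in the 24 males, against 881.1, 4111.1 and 6602.1 in the other 90. The second Rxra probe set was at 471.4, 593.4 and 794.6 in the 24, against 181.5, 369.1 and 577.8. Scaling all arrays to the same median takes about 0.57 off each such difference. It moved the median of all tested probe sets to -0.53, with 12339 of 21817 called lower in the 24 males, and 8 of the members' 11 probe sets were then called lower, all but the brightest of Abca1, Nr1h3 and the second of Rxra. On that scale the second Rxra probe set was at 0.15 (adjusted p = 1). Within the 24 males the slopes per 10 numbers were -0.48 ± 0.09 for the brightest Abca1 probe set, -0.60 ± 0.14 for the brighter Abcg1 probe set and -0.43 ± 0.11 for Mylip. None passed Bonferroni, by which 1.86% of all probe sets did, and each passed Benjamini-Hochberg (adjusted p = 6.1e-04, 0.0020 and 0.0049), as did 30.3% of all.

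The mutual correlation of the members was computed over mice on log2(signal + 1), with the brightest probe set of each gene, as 21 pairs in each sex, with permutation p adjusted by Benjamini-Hochberg over the 42. Neighbouring numbers had like signals, so that mice were not independent along the code, and the correlations were also computed on the residuals from a natural spline (3 df) of the code number. Such a spline is smooth and does not follow the abrupt steps between runs given above. All permutations, also those of the sex labels, treat mice as exchangeable, so that their p values can be too small, on the residuals too. In females 10 of 21 pairs passed, 7 positive and 3 negative, and in males 9, 7 positive and 2 negative. In the 90 males outside the bright arrays 12 passed, 10 positive and 2 negative. The share of pairs of other genes that would pass the same threshold was not computed. These counts of pairs, and those given later, therefore do not set the members apart from other genes.

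The relation of Abcg1 with Mylip was the strongest among the members in both sexes. Its rho was 0.59 in females (r = 0.62, adjusted permutation p = 8.4e-05) and 0.72 in males (r = 0.81, adjusted permutation p = 8.4e-05). It was 0.59 in males outside 55 to 78, 0.82 within the 24 males numbered 55 to 78, and 0.56 in females and 0.76 in males on the residuals. Leaving out the 2 mice farthest from the median Abcg1 signal left r at 0.56 in females and 0.80 in males. The correlation with Abcg1 passed Bonferroni for 19.8% of all probe sets in females and 15.8% in males. Mylip ranked 28th of 10799 genes by the lower of its rho in females and in males outside 55 to 78.

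The exporters did not go together as deposited. Abca1 and Abcg1 had a rho of -0.19 in females (r = -0.21, adjusted permutation p = 0.11) and of 0.09 in males (r = 0.11, adjusted permutation p = 0.43), and 0.11 in males outside 55 to 78. On the residuals rho was -0.03 in females and 0.43 in males (adjusted permutation p = 1.7e-04 in males), and 0.45 in males outside 55 to 78. The correlation with Abca1 passed Bonferroni for 4.54% of all probe sets in females and 11% in males. Abca1 ranked 6737th of 10799 genes by likeness to Abcg1. With Mylip, Abca1 had 0.18 in females (adjusted permutation p = 0.14), 0.22 in males (adjusted permutation p = 0.045) and 0.40 in males outside 55 to 78 (adjusted permutation p = 5.5e-04). On the residuals that pair had 0.27 in females (adjusted permutation p = 0.025) and 0.35 in males (adjusted permutation p = 0.0010). It had 0.46 in males outside 55 to 78 (adjusted permutation p = 4.2e-04).

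**Figure D4:**
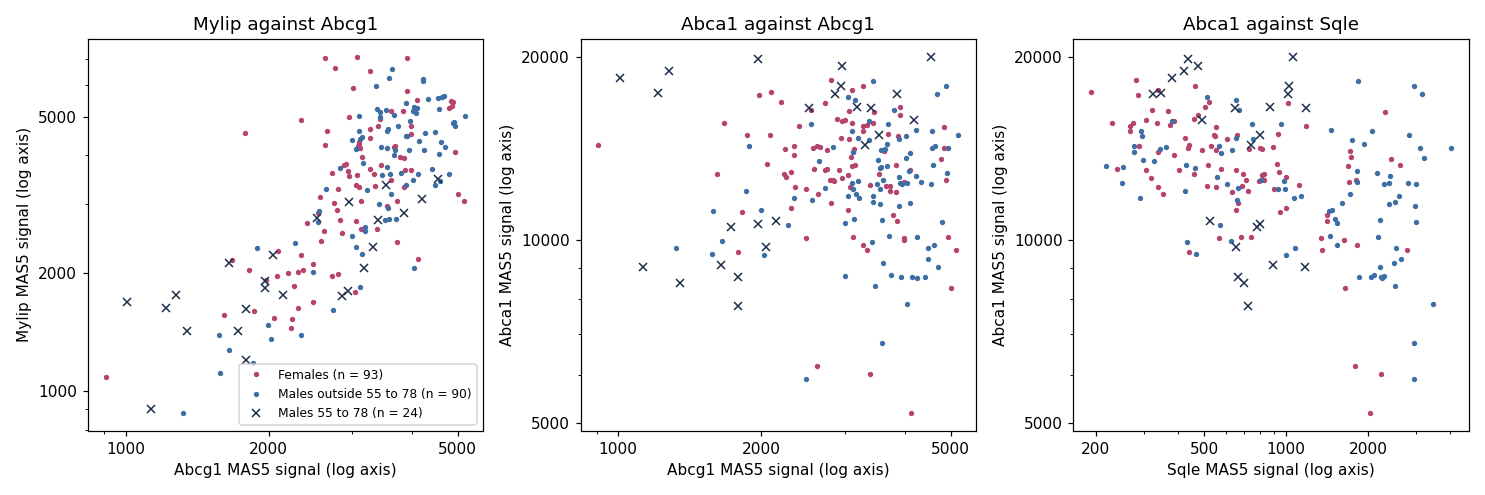
MAS5 signals (log axes) of Mylip against Abcg1 (left), Abca1 against Abcg1 (middle) and Abca1 against Sqle (right), 1 mark per mouse, for 93 females, the 90 males outside 55 to 78 and 24 males numbered 55 to 78 (crosses). Mylip climbs with Abcg1 in all groups of mice, whereas the middle panel shows no common line.

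The correlations of the exporters and target genes with the receptor genes differed from pair to pair. Abca1 had a rho of 0.30 with Nr1h2 in females (r = 0.38, adjusted permutation p = 0.010) and 0.32 in males (r = 0.35, adjusted permutation p = 0.0019), which was 0.00 in females and 0.53 in males on the residuals. With Nr1h3 it had -0.02 in females and -0.03 in males, and -0.25 in males outside 55 to 78 (r = -0.29, adjusted permutation p = 0.034). On the residuals this was -0.37 in females (r = -0.37, adjusted permutation p = 0.0011), -0.12 in males and -0.17 in males outside 55 to 78. Abcg1 had 0.54 with Nr1h3 in females (r = 0.45, adjusted permutation p = 8.4e-05) and 0.03 in males (r = -0.02, adjusted permutation p = 0.82), and the difference between the sexes passed a permutation of the sex labels (adjusted p = 0.0011 over 35 pairs). In males outside 55 to 78 rho was 0.23, and that difference no longer passed. On the residuals rho was 0.30 in females (adjusted permutation p = 0.015) and -0.15 in males (adjusted permutation p = 0.18). Abcg1 had -0.39 with Nr1h2 in females (r = -0.44, adjusted permutation p = 6.3e-04) and 0.05 in males. On the residuals it passed at -0.25 in females (adjusted permutation p = 0.035) and at 0.24 in males (r = 0.15, adjusted permutation p = 0.032). In males outside 55 to 78 it was 0.21 there and did not pass (adjusted permutation p = 0.091). The difference between the sexes was not tested on the residuals. Nr1h3 and Nr1h2 had -0.12 in females and -0.40 in males (r = -0.35, adjusted permutation p = 1.2e-04 in males), and -0.13 in males on the residuals. Abca1 with Rxra had 0.45 in females (r = 0.43, adjusted permutation p = 1.2e-04) and 0.13 in males, and 0.31 in females and 0.04 in males on the residuals.

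Lpcat3 had a rho of 0.36 with Nr1h3 in females (r = 0.45, adjusted permutation p = 0.0018), 0.17 in males (adjusted permutation p = 0.11) and 0.32 in males outside 55 to 78 (r = 0.43, adjusted permutation p = 0.0069). On the residuals these were 0.02 in females, -0.15 in males and -0.11 in males outside 55 to 78, and none passed. Mylip had 0.14 with Nr1h3 in females (adjusted permutation p = 0.24) and -0.21 in males (r = -0.21, adjusted permutation p = 0.049). On the residuals it had -0.17 in females (adjusted permutation p = 0.18) and -0.45 in males (r = -0.48, adjusted permutation p = 1.05e-04), and -0.41 in males outside 55 to 78 (adjusted permutation p = 6.3e-04). With Nr1h2 on the residuals Mylip had -0.24 in females (adjusted permutation p = 0.043) and 0.26 in males (adjusted permutation p = 0.019), and Lpcat3 had 0.16 in females (adjusted permutation p = 0.22) and 0.25 in males (adjusted permutation p = 0.024).

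**Figure D5:**
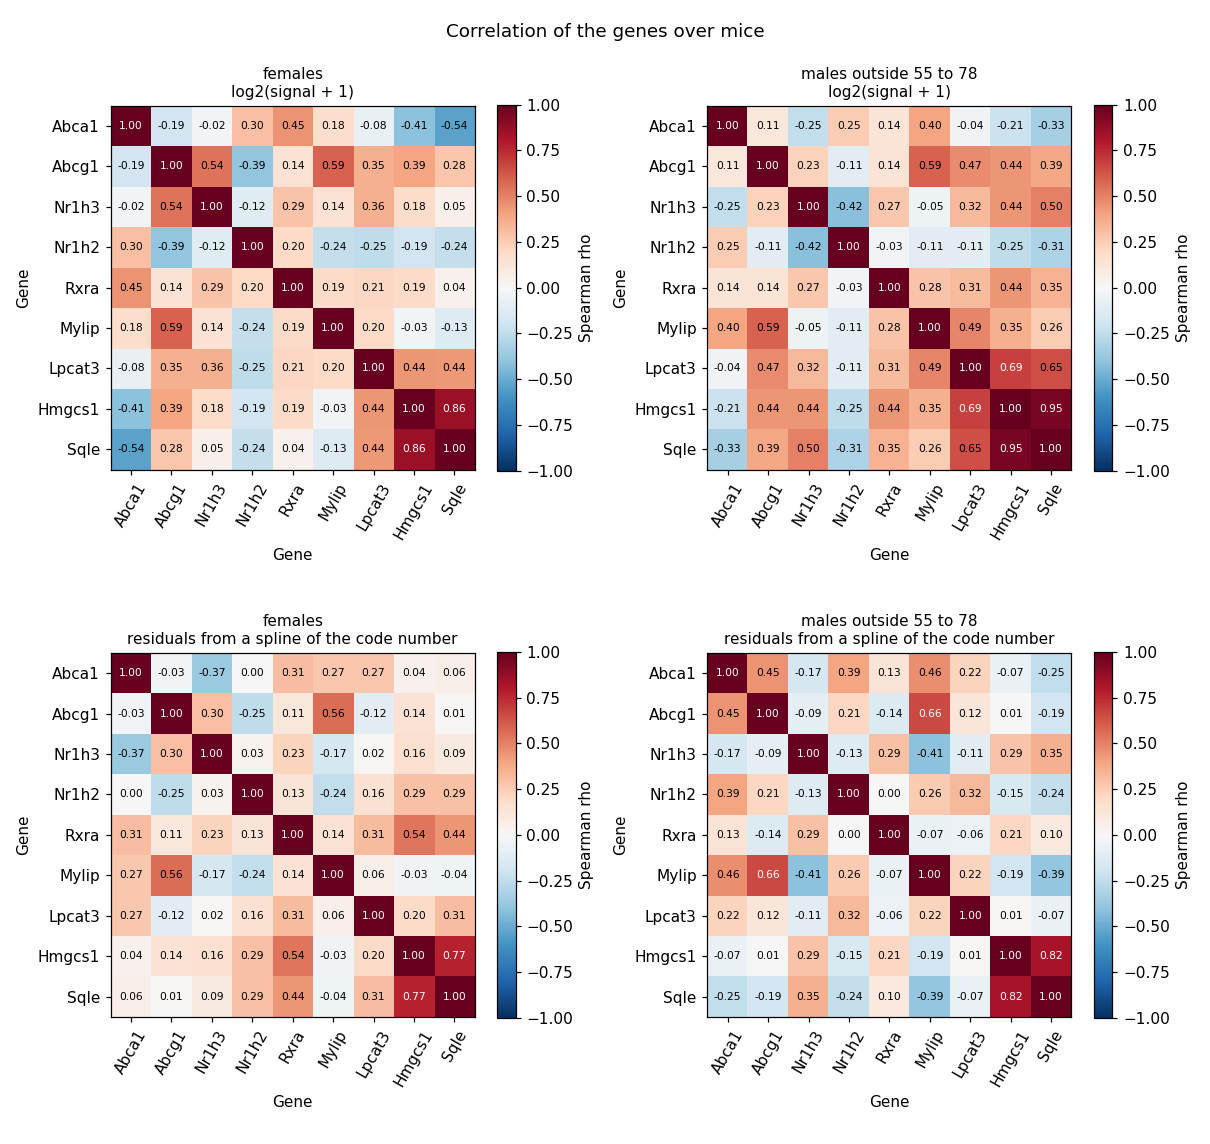
Spearman rho over mice for each pair of the 7 members, Hmgcs1 and Sqle (brightest probe sets), in 93 females on the left and in 90 males outside 55 to 78 on the right, on log2(signal + 1) above and on residuals from a spline of the code number below. Abcg1 with Mylip and Hmgcs1 with Sqle are high in all 4 panels, while Abca1 with Hmgcs1 and Sqle is negative in the upper left panel and near 0 in the lower left one.

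The brightest probe sets of the exporters had correlations of opposite sign with sterol synthesis in the deposited signals. Abca1 had a rho of -0.54 with Sqle in females (r = -0.55, adjusted permutation p = 4.0e-05 over 28 pairs) and -0.35 in males (r = -0.36, adjusted permutation p = 4.1e-04), and of -0.41 and -0.21 with Hmgcs1 (adjusted permutation p = 2.2e-04 in females and 0.038 in males). Leaving out the 2 mice farthest from the median Abca1 signal left r with Sqle at -0.51 in females and -0.32 in males. On the residuals from the spline rho with Sqle was 0.06 in females, -0.37 in males and -0.25 in males outside 55 to 78. In females the relation was thus not seen once this smooth part of the course along the number had been taken out. When all arrays were scaled to the same median it was -0.26 in females and 0.00 in males. Among all probe sets 12.4% passed Bonferroni for Sqle in females and 34.7% in males, and 6.05% of probe sets in females and 45.2% in males were as strongly correlated with Sqle as Abca1. The other Abca1 probe sets had a rho with Sqle of -0.55 and -0.52 in females and of -0.11 and 0.02 in males, and with Hmgcs1 of -0.48 and -0.42 in females and of 0.08 and 0.20 in males.

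Abcg1 had a rho of 0.39 with Hmgcs1 in females (r = 0.38, adjusted permutation p = 0.00025) and 0.57 in males (r = 0.57, adjusted permutation p = 4.0e-05). Lpcat3 had 0.44 in females (r = 0.54, adjusted permutation p = 6.2e-05) and 0.66 in males (r = 0.68, adjusted permutation p = 4.0e-05). On the residuals Abcg1 had 0.14 and Lpcat3 0.20 in females. In males Abcg1 had 0.23 (adjusted permutation p = 0.039) and Lpcat3 0.29 (adjusted permutation p = 0.011), and both had 0.01 in the 90 males outside 55 to 78. With Sqle Abcg1 had 0.28 in females and 0.41 in males, and 0.01 in females and -0.15 in males on the residuals. Its dimmer probe set had -0.03 with Sqle and 0.07 with Hmgcs1 in females, 0.01 and 0.19 in males, and -0.14 and -0.11 in males outside 55 to 78. Lpcat3 had 0.44 with Sqle in females and 0.62 in males. On the residuals this was 0.31 in females (adjusted permutation p = 0.013) and 0.06 in males. For Hmgcs1 15.8% of all probe sets passed in females and 34.1% in males, and 18.9% in females and 7.55% in males were as strongly correlated as Lpcat3. Mylip had -0.03 with Hmgcs1 in females and 0.50 in males (r = 0.49, adjusted permutation p = 4.0e-05), a difference between the sexes that passed (adjusted permutation p = 0.0028) and no longer did without the males numbered 55 to 78. On the residuals it had -0.03 in females and 0.22 in males (adjusted permutation p = 0.048 in males). Rxra had 0.19 with Hmgcs1 and 0.04 with Sqle in females, and 0.40 and 0.34 in males. On the residuals it had 0.54 and 0.44 in females (adjusted permutation p = 2.8e-04 and 4.2e-04), and 0.20 and 0.16 in males. Its second probe set had -0.14 and -0.23 in females as deposited. Nr1h3 had 0.18 and 0.05 in females and 0.12 and 0.29 in males, and 0.44 and 0.50 in males outside 55 to 78. On the residuals Nr1h3 had 0.16 and 0.09 in females and 0.06 and 0.25 in males. Hmgcs1 and Sqle themselves had 0.86 in females and 0.90 in males, and 0.77 and 0.74 on the residuals.

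The genes most like Abca1, by the lower of rho in females and in males outside 55 to 78, were Nfe2l2 (0.66), which encodes the transcription factor NRF2, Mgst1 (0.65), Arid5b (0.63), Man2a1 (0.61) and Abhd4 (0.61). Those most like Abcg1 were Plk2 (0.70), Rilpl2 (0.70), Tecpr1 (0.66), Cd36 (0.64), a scavenger receptor for oxidized lipoprotein, and the chemokine Ccl3 (0.64). No member was among either set of 5.

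Control probes were correlated with several members. The beta-actin 3′ to 5′ ratio had a rho of -0.56 with Lpcat3 in females and -0.26 in males, of 0.21 with Nr1h2 in females (adjusted permutation p = 0.071) and 0.47 in males, and of 0.19 with Abca1 in females (adjusted permutation p = 0.11) and 0.57 in males. With Nr1h3 it had -0.26 in females and -0.33 in males, and -0.59 in males outside 55 to 78. The Gapdh ratio had -0.43 with Lpcat3 in females and -0.50 in males, -0.24 with Abcg1 in females and -0.39 in males, and -0.21 with Nr1h3 in females (adjusted permutation p = 0.056) and -0.49 in males. The array median had -0.36 with Abcg1 in females and -0.44 in males, and -0.11 with Mylip in females (adjusted permutation p = 0.34) and -0.41 in males. Except where males outside 55 to 78 are named, these values in males include the bright arrays. The part of these in the correlations was not tested.

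The wider pathway was read from lists of genes with 1 probe set per gene, beside 10800 genes of which 1990 were higher in females and 1155 higher in males. Of 21 tested liver X receptor targets outside the members 2 were higher in females, Srebf1 (1479 ± 217 in females and 1145 ± 237 in males), the regulator of fatty acid synthesis, and Elovl5, and 2 were lower, Npc2 and Fads2. Their median log2 ratio was 0.03, against 0.01 over all genes. Over the code number 6 of them fell and 1 rose in females, and 8 fell and 2 rose in males, with the fatty acid genes Fads2, Fasn, Acsl3 and Fads1 falling in both sexes (by 0.225, 0.209, 0.164 and 0.118 per 10 numbers in females). Of 11 partners and cofactors 6 were higher in females, led by the coactivator Ncoa1 (1286 ± 141 in females and 864 ± 138 in males), and 1 was lower, the deacetylase Hdac3. Of 21 genes of sterol synthesis and uptake 16 fell over the number in females and 19 in males, and 0 rose, against 1787 falls in females and 1827 in males of 10800 genes. By sex 1 of those 21 was higher in females (Scap) and 5 were lower, Nsdhl, Hsd17b7 and Ebp among them. Of 8 other genes of efflux and cholesterol traffic 2 were higher in females, Vps4a and Abca7 (1037 ± 317 in females and 627 ± 225 in males), a relative of Abca1, and 1 was lower, Osbpl1a. Abca7 rose with the number (by 0.143 ± 0.012 in females and by 0.111 ± 0.009 in males), and 4 of the 8 fell in each sex. Ch25h, which makes the oxysterol 25-hydroxycholesterol, was lower in females (654 ± 579 in females and 1164 ± 865 in males, adjusted p = 1.3e-04 by the Mann-Whitney test) and fell with the number in both sexes.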

How the data were processed

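The authors deposited 1 MAS5 signal intensity per probe set and mouse, on a linear scale after whole-chip scaling; no further normalization was applied, and logs were taken of the signal + 1. The second deposited table, of genotype codes, was not used. The sexes were set against each other with the Mann-Whitney test (2-sided, normal approximation, scipy 1.17.1), with a signal minimum of 80 in 69 mice in place of detection calls. Trends were fitted with limma 3.58.1 in R 4.3.3. Correlations used 100000 permutations, whose smallest p is 1e-05, and sex labels were permuted to compare correlations. The procedures were tested on simulated data. Symbols came from the array annotation (34958 of 45037 probe sets with 1 symbol), and Nr1h2 was named from a supplementary table. The members and lists were chosen with earlier results of these data known; runs of 6 numbers and the ratios between probe sets were chosen after the values were seen. Genes named outside the members are, per list, up to 4 with the smallest p by sex and by trend, and the 5 most like Abca1 and Abcg1. The number of arrays limits the precision.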

Additional observations from a re-analysis of the deposited data

Results flagged for a closer look

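Spearman correlations of 4 pairs differed between the sexes when the sex labels were permuted (35 pairs, Benjamini-Hochberg). Abcg1 with Nr1h3 had a rho higher by 0.51 in females than in males (0.54 in females and 0.03 in males). The other differences, females minus males, were -0.44 for Abcg1 with Nr1h2, -0.53 for Mylip with Hmgcs1 and -0.45 for Mylip with Sqle. Without the males numbered 55 to 78 none of these 4 passed (adjusted permutation p over 0.05), and Nr1h3 with Sqle did (0.05 in females and 0.50 in those 90 males, adjusted permutation p = 0.039).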

How the results depend on the processing

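No paired analysis was possible because no label ties a given female to a given male. Counts of the members' probe sets called between the sexes (4) were 7 with Benjamini-Hochberg, and 2 in each of 2 of the 9 comparisons of code groups, which hold fewer mice. For trends the counts were 7 in females and 8 in males with Benjamini-Hochberg, and 1 in males with the 3′ to 5′ ratios. Of all probe sets 62.5% in females and 65.1% in males passed for trends with Benjamini-Hochberg. Those counts of 7 and 8 therefore do not set the members apart from other probe sets. Such shares are not given here for the sexes with Benjamini-Hochberg or for trends with the 3′ to 5′ ratios. With arrays scaled to the same median, which shifts every value by the array's own brightness (females minus males -0.15, males 55 to 78 minus the others 0.57 on the log2 scale), 16 pairs of members in females and 19 in males passed, all of them positive. Among pairs that passed on at least 1 of the scales compared, rho changed sign on that scale in females for Abca1 with Nr1h3 (0.23) and with Lpcat3 (0.24) and for Nr1h2 with Lpcat3 (0.12), and in males for Nr1h3 with Mylip (0.21), Nr1h2 with Rxra (0.37), Abca1 with Hmgcs1 (0.21) and Sqle (0.00059), and Nr1h2 with Hmgcs1 (0.41) and Sqle (0.21). By the same rule it changed sign on the residuals from the spline in females for Abca1 with Lpcat3 (0.27), Abcg1 with Lpcat3 (-0.12), Nr1h2 with Lpcat3 (0.16), Hmgcs1 (0.29) and Sqle (0.29), and Abca1 with Hmgcs1 (0.040) and Sqle (0.060), and in males for Rxra with Mylip (-0.013) and Lpcat3 (-0.013), Abcg1 with Sqle (-0.15) and Mylip with Sqle (-0.20), and 6 pairs with sterol synthesis passed in males. A further 5 pairs, which passed neither as deposited nor on the residuals, also changed sign there. The cause was not tested. The deposited table holds no detection calls, and dim probe sets such as Abcg1's second limit fold effects.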
